A study of Mus musculus with 18 samples.

Results

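The 3 liver tumours of miR-181ab1 global knockout (GKO) mice were set against the livers of 3 untreated GKO mice. The comparison takes 6 of the 18 RNA-seq samples of the study and asks how the transcriptome of a tumour that lacks the miR-181ab1 cluster differs from that of a liver that lacks it too and never met the carcinogen. All mice were C57BL/6 and 36 weeks old. The tumours came from mice given diethylnitrosamine (DEN), a carcinogen that liver enzymes activate into a DNA alkylating agent, by a single intraperitoneal dose of 25 mg/kg at postnatal day 12. Male pups were injected according to the study's methods. The normal livers were untreated, so DEN exposure and being a tumour cannot be told apart here. The deletion is carried by every GKO sample and removes the cluster in all tissues, so it does not separate these groups. The study's 3 GKO non-tumour livers, from DEN-treated mice, are given beside the tumours. Its WT tumours and WT normal livers serve only to test whether the genotypes differ. The sources used here do not say how many tumours make up a sample, nor which tumour and non-tumour liver share a mouse, and p-values measure only the spread between these samples. Of the 54838 genes in the table, 13928 averaged 0.5 TPM or more over the 6 samples and were tested. TPM counts transcripts per unit of gene length, scaled to the same total in every sample. A gene absent from normal livers could pass this minimum through the tumours.

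Hepatocytes divide the work of the liver along the lobule. Periportal cells make glucose and urea, and pericentral cells, held in that state by Wnt signalling, make glutamine, bile acids and most drug-metabolising P450 enzymes. Male and female mouse livers further differ in P450, steroid-metabolising and secreted proteins under the pulses of growth hormone. A single early dose of DEN gives tumours that arise from hepatocytes, commonly with activating mutations of Hras or Braf. MicroRNAs of the miR-181 family lower the transcripts that pair with their seed. The deleted cluster encodes miR-181a and miR-181b, whose mature sequences are printed to show that they share 1 seed.

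The mature sequences from RefSeq (GRCm38.p6) follow, with the seed, bases 2 to 8, in capitals.
mmu-miR-181a-5p: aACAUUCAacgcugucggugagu
mmu-miR-181b-5p: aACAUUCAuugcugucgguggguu

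The 23 bases of miR-181a-5p lie at chr1:137966468-137966490 and the 24 bases of miR-181b-5p at chr1:137966650-137966673, both on the plus strand. The same mature sequences are also encoded by Mir181a-2 (chr2:38852741-38852763) and Mir181b-2 (chr2:38853845-38853868), which this deletion leaves in place. Mir181b-1 stood at 0 TPM in all 18 samples. Mir181a-1 was 0 TPM in all but GKO tumour 3, where 1.4 TPM stood for 1 read. As WT samples were also at 0, these hairpin genes do not check the genotype in long-RNA libraries.

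Tumour and normal liver differed widely. Of the 13928 genes tested, 2802 (20.1%) passed an adjusted p of 0.05 with limma, 2255 (16.2%) of them higher and 547 (3.93%) lower in the tumours. Of these, 1585 were more than 2-fold higher and 462 more than 2-fold lower. For 6033 genes (43.3%) the 3 tumour values lay wholly above or below the 3 normal values. Fold changes are on the log2(TPM + 1) scale, which understates those of low genes, and are given as tumour minus normal liver. The median gene was itself 0.31 higher in tumours as deposited, a shift of TPM as a share of the total, so each log2 fold change below is 0.31 smaller relative to the median gene. With every sample centred on its median gene, 851 genes (6.11%) were higher and 1053 (7.56%) lower. All 851 were also called higher as deposited, 541 of the 547 lower genes were called lower both ways, and 0 changed direction.

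Non-tumour livers gave no such calls. Against the same normal livers limma called 0 of 13530 genes (0%), with a smallest adjusted p of 0.208, 703 genes at an unadjusted p under 0.05 and 0 genes by voom. With 1 sample left out, 0 to 2 genes passed. The tumours against the non-tumour livers gave 1652 of 14092 genes (11.7%), and 619 or 229 without non-tumour liver 2 or 3 and 1001 or 747 without tumour 1 or 3. Both comparisons share samples with the main one, so they serve only as values set side by side. Read totals were 17427243 to 20751323 in the GKO tumours and 14893882 to 15848027 in the normal livers. Samples correlated at 0.950 to 0.968 among the normal livers and at 0.940 to 0.949 among the tumours. Tumour 2 was nearest to the normal livers, at 0.897 to 0.921, followed by tumour 3 at 0.868 to 0.892 and tumour 1 at 0.850 to 0.878. These correlations run across genes, which are not independent replicates. Leaving out normal liver 1, 2 or 3 lowered the 2802 calls to 1298, 930 and 1545, and leaving out tumour 1 or 3 lowered them to 1740 and 1570.

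A few kinds of genes took very different shares of the transcripts. Mitochondrially encoded genes held 15.7, 8.80 and 17.5% of all TPM in normal livers and 2.38, 3.15 and 2.32% in tumours. Alb, which encodes serum albumin, rose from 2.29, 3.35 and 4.41% to 10.2, 9.46 and 14%, a log2 fold change of 1.77 ± 0.34 (SE, adjusted p = 0.0138). Leaving out 1 library ended the calls of Alb without normal liver 2 (highest adjusted p 0.0517). After median centring Alb had an adjusted p value of 0.0601. The major urinary protein (Mup) genes, pheromone carriers secreted by the male liver, held 3.19, 2.52 and 2.54% in normal livers and 0.247, 0.994 and 1.17% in tumours. All 3 shares separated tumours from normal livers without overlap. Since TPM is a share of a fixed total, a change in such genes moves every other value, and their part in the shift of the median gene was not tested beyond the rescaling given in the closing section.

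**Figure D1:**
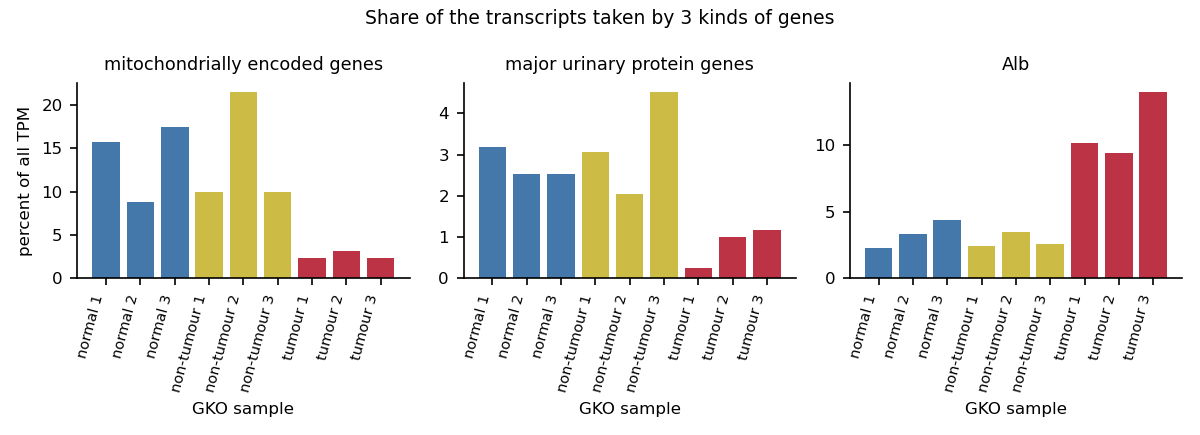
Share of all TPM (percent, bars from 0) held by mitochondrially encoded genes, major urinary protein genes and Alb in each GKO normal, non-tumour and tumour sample. Tumours sit at 2.32 to 3.15% for mitochondrially encoded genes and 9.46 to 14% for Alb, while normal livers sit at 8.80 to 17.5% and 2.29 to 4.41%.

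The largest rises were those of genes that were low in the normal livers. H19, an imprinted long non-coding RNA of fetal liver (ENSMUSG00000000031, chr7:142575529-142578143, minus strand), was 1.79, 0.202 and 0.191 TPM in normal livers, 0.312, 1.14 and 0.504 TPM in non-tumour livers and 1005, 145 and 1679.9 TPM in tumours, a log2 fold change of 8.63 ± 0.84 (SE, adjusted p = 0.00327). Tff3, a secreted trefoil peptide of mucous epithelia (ENSMUSG00000024029, chr17:31125306-31129646, minus strand), was 14.9, 11.1 and 3.57 TPM in normal livers and 3994, 997 and 3276 TPM in tumours, a log2 fold change of 7.94 ± 0.62 (SE, adjusted p = 0.00193). Its non-tumour values of 57.8, 14.8 and 43.8 TPM lay far below every tumour. Cyp2a4, a steroid hydroxylase of the female liver (ENSMUSG00000074254, chr7:26307169-26315088, plus strand), went from 25.1, 9.64 and 16 TPM to 11422, 2899 and 1942 TPM, a log2 fold change of 7.90 ± 0.64 (SE, adjusted p = 0.00195). Reads of its near-identical neighbour Cyp2a5 could be split with it. Cyp2b9, another female P450, went from 0.783, 0.265 and 6.51 TPM to 319.9, 112 and 154 TPM (log2 fold change 6.12, adjusted p = 0.00383).

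Spink1, a secreted trypsin inhibitor, was 0, 0.882 and 0 TPM in normal livers and 52.8, 59.7 and 333 TPM in tumours, a log2 fold change of 6.38 ± 0.67 (SE, adjusted p = 0.00376). Lcn2, a siderophore-binding acute-phase protein, rose evenly from 6.16, 2.37 and 2.19 TPM to 209, 176 and 168 TPM (log2 fold change 5.44, adjusted p = 0.00125). Cd63, a tetraspanin of late endosomes and exosomes (ENSMUSG00000025351, chr10:128900989-128912822, plus strand), showed the tightest tumours of the 12, at 273, 259 and 244 TPM against 9.64, 8.53 and 3.67 TPM in normal livers, a log2 fold change of 5.06 ± 0.32 (SE, adjusted p = 0.00136). In non-tumour livers it stayed at 7.08, 6.0 and 4.82 TPM. Aldh1b1, a mitochondrial aldehyde dehydrogenase, went from 8.04, 5.88 and 12.4 TPM to 714, 161 and 506 TPM (log2 fold change 5.37, adjusted p = 0.00345). The uncharacterised 2310034O05Rik was 0.868, 0 and 0 TPM in normal livers and 47.2, 91.9 and 26.6 TPM in tumours. Erich4 had 3 reads or fewer in every normal liver and 7.96, 62.9 and 25.8 TPM in tumours, at least 80.7-fold higher against the level of 3 reads over the group.

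Of the other rises, 2 were by far highest in tumour 2, though neither lost its call when tumour 2 was left out. Akr1c18, a steroid dehydrogenase that inactivates progesterone, was 74.3, 551 and 14.1 TPM in tumours and 1.62, 0.822 and 0.876 TPM in normal livers (log2 fold change 5.37, adjusted p = 0.0169). Igfbp1, a binding protein that hepatocytes secrete in fasting and stress, was 122, 3782 and 216 TPM in tumours and 12, 33.9 and 11.2 TPM in normal livers (log2 fold change 4.72, adjusted p = 0.0299). Neither gene overlapped between tumours and normal livers. A call was lost on leaving out 1 library for Akr1c18 without normal liver 1, 2 or 3 (highest adjusted p 0.0602) and Igfbp1 without normal liver 1, 2 or 3 or tumour 3 (highest adjusted p 0.0867). After median centring Igfbp1 had an adjusted p value of 0.0578. By voom the adjusted p was 0.113 for Akr1c18. The other 10 of the 12 kept their call whichever library was left out.

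The largest falls included many male-biased and pericentral genes. Oat, ornithine aminotransferase (ENSMUSG00000030934, chr7:132557478-132576398, minus strand), fell from 931, 1053 and 1032 TPM in normal livers to 4.54, 135 and 22.1 TPM in tumours, a log2 fold change of -5.28 ± 0.98 (SE, adjusted p = 0.0125), and was 943, 748 and 778 TPM in non-tumour livers. Elovl3, a fatty acid elongase of the male liver (ENSMUSG00000038754, chr19:46131897-46135694, plus strand), went from 198, 463 and 123 TPM to 0.435, 27 and 1.88 TPM, a log2 fold change of -5.53 ± 1.03 (SE, adjusted p = 0.0126). Cyp1a2, which oxidises caffeine and arylamines, went from 475, 701 and 639 TPM to 2.69, 104 and 14 TPM (log2 fold change -5.05, adjusted p = 0.0167). Cyp2e1, the P450 best known for activating DEN itself, was 4039.8, 5752 and 6471 TPM in normal livers and 18.8, 1446 and 405 TPM in tumours. Its log2 fold change was -4.55 ± 1.34 (SE, adjusted p = 0.0498). In all 12 falls tumour 2 kept the highest level and tumour 1 the lowest.

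Hsd3b5, a steroid reductase of the male liver, was at 0.0699, 17.3 and 2.75 TPM in tumours, a log2 fold change of -4.65 ± 0.98 (SE, adjusted p = 0.0188). Mup12 went from 259, 96.6 and 98.8 TPM to 0.351, 13.2 and 0.526 TPM (log2 fold change -5.47, adjusted p = 0.00861), Mup11 fell by 6.24 and Mup7 by 4.76 on the log2 scale, and reads of Mup genes can be split among near-identical copies. The carboxylesterase Ces1f went from 199.7, 245 and 295 TPM to 1.38, 54.5 and 4.52 TPM, and the uncharacterised 9030616G12Rik from 51.3, 61.6 and 75.2 TPM to 0.168, 3.99 and 1.32 TPM. Cyp2c54 and Cyp2c37, P450 enzymes of a family of close paralogs, had log2 fold changes of -4.86 and -4.65. Leaving out 1 library ended the calls of Mup11 and Mup7 without normal liver 1, 2 or 3 or tumour 1 or 3 (highest adjusted p 0.122 and 0.127), Elovl3 without normal liver 2 (highest adjusted p 0.0509), Cyp1a2, Ces1f, Cyp2c37 and Cyp2e1 without normal liver 1, 2 or 3 or tumour 3 (highest adjusted p 0.0601, 0.0661, 0.059 and 0.13), and Hsd3b5 without normal liver 1 or 2 or tumour 3 (highest adjusted p 0.0697). After median centring Mup7 and Cyp2e1 had adjusted p values of 0.0519 and 0.0579. Mup12, Oat, Cyp2c54 and 9030616G12Rik kept their call whichever library was left out.

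**Figure D2:**
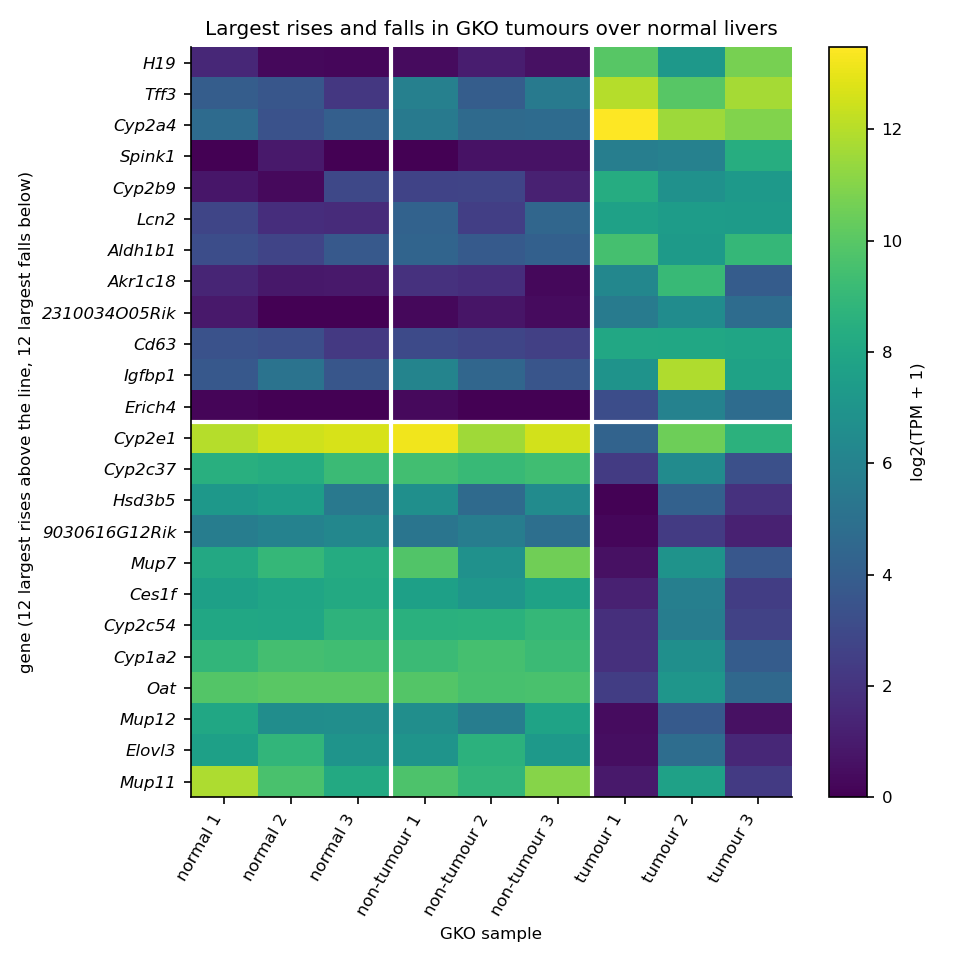
Level of the 12 largest rises and 12 largest falls, as log2(TPM + 1) by colour, with genes in the ordinate and the 3 normal, 3 non-tumour and 3 tumour GKO samples in the abscissa. H19 reaches 1005, 145 and 1679.9 TPM in the tumours against 1.79, 0.202 and 0.191 TPM in normal livers, and Oat 4.54, 135 and 22.1 TPM against 931, 1053 and 1032 TPM.

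Of 24 tumour markers, 17 passed the minimum, 8 were called higher and 1 lower, against 16.2% and 3.93% of all genes, with a median log2 fold change of 2.93 against 0.31. Over non-tumour and normal livers 14 of the 24 passed, so some entered here through the tumours. Beside H19, Tff3, Spink1 and Akr1c18, the called members included Afp, the fetal albumin counterpart, at 18.6, 55.6 and 13 TPM in tumours and 0.509, 1.44 and 0.942 TPM in normal livers, a log2 fold change of 3.70 ± 0.49 (SE, adjusted p = 0.0053). Gpc3, a fetal proteoglycan, was 2.49, 202 and 104 TPM in tumours and 1.46, 1.61 and 1.44 TPM in normal livers and did not pass the test (log2 fold change 4.07, adjusted p = 0.0649), its tumour 1 lying close to the normal livers. Cd24a, a surface glycoprotein of progenitor cells, was 1.89, 16.3 and 4.82 TPM in tumours and overlapped normal livers at 0.854, 1.39 and 2.05 TPM. Igf2, the fetal growth factor, was at or under 3 reads in normal livers and 0.0378, 0.0214 and 0.149 TPM in tumours, and was not tested. The marker called lower was Gstp1, a glutathione transferase of male hepatocytes, at 5255, 8917 and 8009.8 TPM in normal livers and 2966, 2913 and 986 TPM in tumours (log2 fold change -1.82, adjusted p = 0.0324). Calls that ended when 1 library was left out were those of Gstp1 without normal liver 1, 2 or 3 or tumour 3 (highest adjusted p 0.108).

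**Figure D3:**
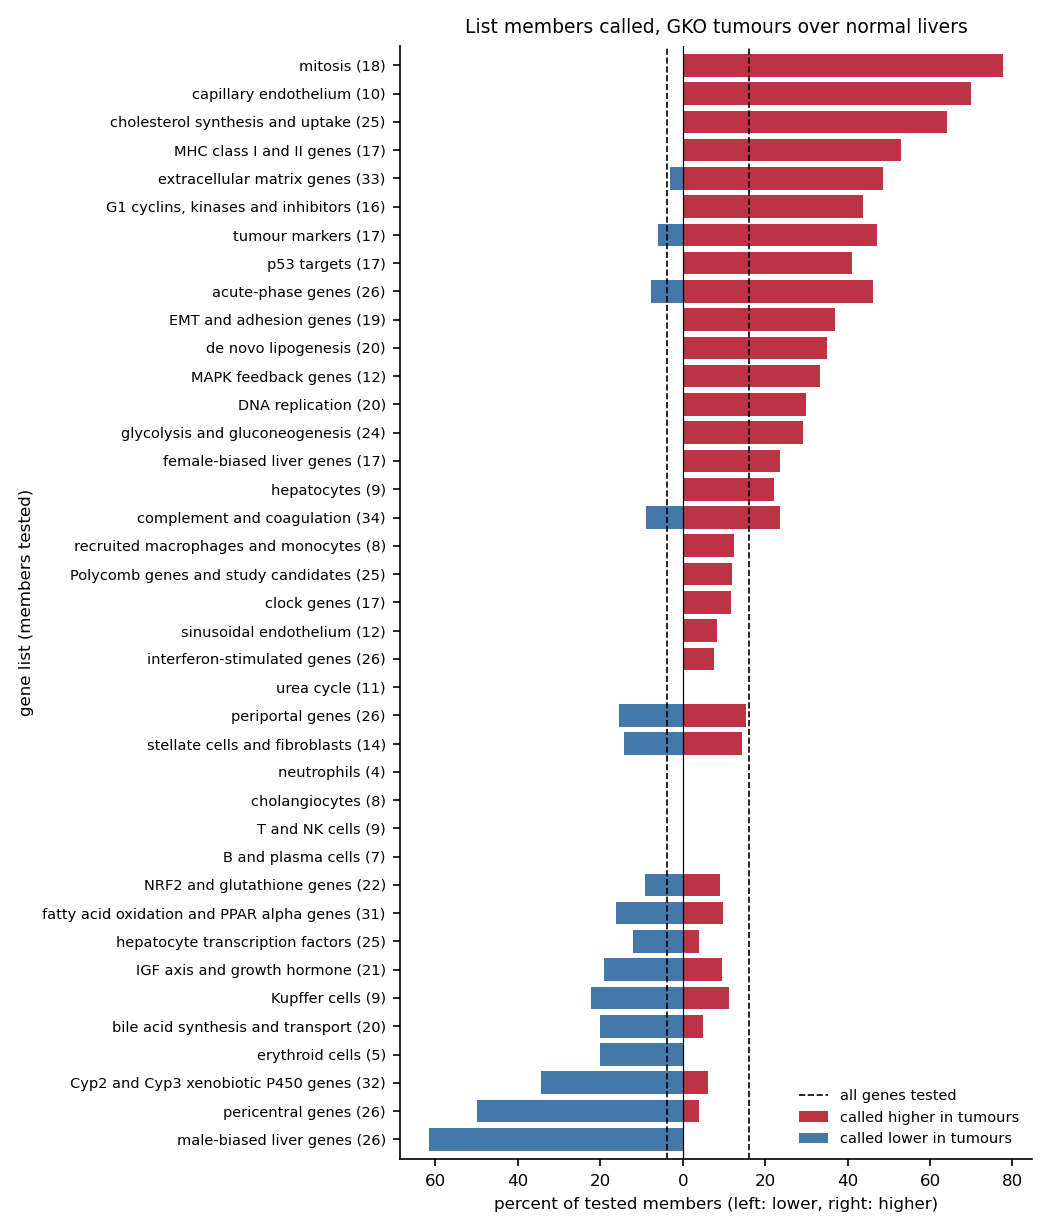
Share of the tested members of each gene list (percent, number tested in brackets) called higher (right) or lower (left) in GKO tumours over normal livers, with dashed lines at the shares over all genes tested, 16.2% and 3.93%. Mitosis (14 of 18 higher) and male-biased liver genes (16 of 26 lower) stand at the ends.

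Genes of dividing cells rose together. Of 25 mitosis genes, 18 passed the minimum, 14 were called higher and 0 lower (all genes: 16.2% and 3.93%), with a median log2 fold change of 1.79. All 18 lay higher in tumours without overlap, as did 4816 of all 13928 genes. Only 6 of the 25 reached the same minimum over non-tumour and normal livers. Members that passed through their level in the tumours had a rise nearly fixed in advance, so count and median lean upward. Their summed level was 5.62 to 9.34 TPM in normal livers, 6.66 to 11.1 TPM in non-tumour livers and 67.5 to 214 TPM in tumours. In bulk tissue, more cells in division and more of such RNA per cell cannot be told apart. Ccnb2, a B-type cyclin of mitotic entry, went from 1.52, 0.648 and 1.76 TPM to 34.5, 15.3 and 44.2 TPM, a log2 fold change of 3.72 ± 0.40 (SE, adjusted p = 0.00383). Cdc20, an activator of the anaphase-promoting complex, went from 1.05, 0.266 and 2.08 TPM to 17.6, 10.3 and 43.2 TPM (log2 fold change 3.39, adjusted p = 0.00773). Birc5, the survivin of the chromosomal passenger complex, went from 0.216, 0.182 and 0.483 TPM to 7.32, 4.35 and 11.5 TPM (log2 fold change 2.67, adjusted p = 0.00438). The proliferation marker Mki67 stood at 0.34, 0.148 and 0.128 TPM in normal livers and only 3.28, 1.88 and 6.21 TPM in tumours (log2 fold change 1.89, adjusted p = 0.0119). Tumour 3 held the highest level of each of these 4 genes and tumour 2 the lowest. Ccnb1 had 3 reads or fewer in every normal liver and 3.0, 2.32 and 10.3 TPM in tumours, at least 60.4-fold higher, and the kinase Cdk1 rose from 0.248, 0.503 and 1.0 TPM to 2.33, 3.3 and 7.23 TPM. Top2a, the topoisomerase of dividing cells, had a log2 fold change of 1.27. The calls lost with 1 library fewer were those of Top2a without normal liver 1, 2 or 3 or tumour 3 (highest adjusted p 0.0862), Ccnb1 without normal liver 2 (highest adjusted p 0.0509), and Cdk1 without normal liver 1 or 2 (highest adjusted p 0.074). After median centring Top2a and Cdk1 had adjusted p values of 0.0665 and 0.0512. The mitosis count was 10 after median centring, 9 without normal liver 1 and 7 without normal liver 2.

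Replication genes moved less. Of 25, 20 passed the minimum, 6 were higher and 0 lower (all genes: 16.2% and 3.93%), with a median of 0.76. Over non-tumour and normal livers 17 of the 25 passed, so some entered here through the tumours, and count and median lean upward. Rrm2, a subunit of ribonucleotide reductase, went from 0.397, 1.16 and 1.02 TPM to 4.8, 3.66 and 8.4 TPM (log2 fold change 1.79, adjusted p = 0.0116), and the helicase subunit Mcm5 from 0.214, 0.28 and 0.736 TPM to 3.23, 2.14 and 3.05 TPM (adjusted p = 0.0104). Mcm2 and Mcm6 of the same helicase had log2 fold changes of 1.03 and 1.33. Pcna, the sliding clamp, was 10.5, 14 and 19 TPM in normal livers and 21.2, 20.5 and 34.4 TPM in tumours and did not pass the test (adjusted p = 0.105). With 1 library left out, the calls that ended were those of Mcm2 without normal liver 2 or 3 or tumour 1, 2 or 3 (highest adjusted p 0.0761) and Mcm6 without normal liver 2 or tumour 3 (highest adjusted p 0.0695). After median centring Mcm2 had an adjusted p value of 0.0889. The replication count was 3 after median centring, 2 without normal liver 2, 3 without normal liver 3, 3 without tumour 1 and 2 without tumour 3.

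Both drivers and brakes of G1 were higher in tumours. Of 16 G1 cyclins, kinases and inhibitors, all tested, 7 were higher and 0 lower (all genes: 16.2% and 3.93%), with a median of 0.58. Ccnd1, cyclin D1, went from 1.4, 1.74 and 2.89 TPM to 22.4, 11.8 and 25.9 TPM, a log2 fold change of 2.77 ± 0.33 (SE, adjusted p = 0.00433), and Ccne1, cyclin E1, from 1.01, 0.233 and 0.397 TPM to 6.1, 4.87 and 4.12 TPM (log2 fold change 1.98, adjusted p = 0.00528). The adjacent kinase inhibitor genes Cdkn2a and Cdkn2b rose with them. Cdkn2b, p15, went from 0.088, 0.625 and 0 TPM to 8.88, 53.3 and 13.9 TPM, a log2 fold change of 4.05 ± 0.59 (SE, adjusted p = 0.00625). Cdkn2a, which encodes p16 and p19Arf, went from 0.731, 0.529 and 0 TPM to 7.57, 67.7 and 11.4 TPM (log2 fold change 3.81, adjusted p = 0.0128). Cdkn1a, the p53-driven inhibitor p21, went from 2.03, 1.22 and 0.231 TPM to 5.27, 41.3 and 12.3 TPM (log2 fold change 2.91, adjusted p = 0.0234). Tumour 2 held the highest level of all 3 inhibitors. A call was lost on leaving out 1 library for Cdkn1a without normal liver 1, 2 or 3 or tumour 3 (highest adjusted p 0.0714). By voom the adjusted p was 0.0698 and 0.0607 for Cdkn2a and Cdkn1a. The 7 calls of the list became 4 by voom.

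Of 18 p53 targets, 17 passed the minimum, 7 were higher and 0 lower (all genes: 16.2% and 3.93%), with a median of 0.86. Btg2, an antiproliferative immediate early gene, went from 4.55, 1.85 and 5.61 TPM to 21.3, 72.7 and 54.9 TPM, a log2 fold change of 3.26 ± 0.49 (SE, adjusted p = 0.0071). Phlda3, a repressor of Akt signalling, was 1.57, 3.42 and 1.13 TPM in normal livers and 8.26, 80.9 and 22.6 TPM in tumours (adjusted p = 0.0228). Mdm2, the p53 ubiquitin ligase, was 7.37, 6.27 and 3.61 TPM in normal livers and 7.69, 11.6 and 9.66 TPM in tumours and did not pass (adjusted p = 0.123). Leaving out 1 library ended the calls of Phlda3 without normal liver 1, 2 or 3 or tumour 3 (highest adjusted p 0.0693). Voom gave Phlda3 an adjusted p of 0.0789. The count of p53 targets was 4 after median centring, 2 by voom, 3 without normal liver 1, 1 without normal liver 2, 1 without normal liver 3, 4 without tumour 1 and 1 without tumour 3.

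Genes switched on by MAPK signalling split the tumours. Of 15 feedback genes of the pathway 12 passed the minimum, 4 were higher and 0 lower (all genes: 16.2% and 3.93%), with a median of 1.15. Over non-tumour and normal livers 10 of the 15 passed, so some entered here through the tumours, and count and median lean upward. Dusp5, a nuclear ERK phosphatase, went from 0.841, 1.25 and 0.808 TPM to 14.8, 35.5 and 16.8 TPM, a log2 fold change of 3.47 ± 0.34 (SE, adjusted p = 0.00324). The cytoplasmic ERK phosphatase Dusp6 was 11.7, 36.9 and 42.7 TPM in tumours against 14.4, 14.3 and 12.4 TPM in normal livers (adjusted p = 0.176). Spry2, a receptor signalling inhibitor, was 1.71, 10.3 and 9.52 TPM in tumours against 2.4, 1.25 and 2.31 TPM (adjusted p = 0.14), and the transcription factor Etv4 0.279, 5.0 and 2.04 TPM against 0.197, 0.0799 and 0.114 TPM (adjusted p = 0.0986). Tumour 1 lay near the normal livers in all 3 and tumours 2 and 3 above them. Dusp5 kept its call whichever library was left out. The count of MAPK feedback genes was 2 after median centring, 2 without normal liver 1, 2 without normal liver 2, 2 without normal liver 3, 9 without tumour 1, 2 without tumour 2 and 2 without tumour 3.

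The pericentral programme was low in every tumour. Of 26 pericentral genes, all tested, 13 were lower and 1 higher (all genes: 3.93% and 16.2%), with a median log2 fold change of -1.33. Their summed level was 9531 to 12699 TPM in normal livers, 7634 to 17149 TPM in non-tumour livers and 1557 to 5105 TPM in tumours. Relative to the mean of the normal livers, the median member stood at -2.15, -1.16 and -1.58 in tumours 1, 2 and 3 on the log2 scale. Beside Oat, Cyp1a2 and Cyp2e1, the Wnt target Axin2 went from 2.49, 3.54 and 1.43 TPM to 0.0197, 0.733 and 0.465 TPM (log2 fold change -1.30, adjusted p = 0.0288), and the Wnt-dependent transcription factor Tbx3 from 16.8, 24.3 and 6.42 TPM to 0.114, 3.89 and 1.54 TPM (log2 fold change -2.64, adjusted p = 0.0245). Glul, glutamine synthetase of the last ring of cells around the central vein, was 681, 876 and 387 TPM in normal livers and 6.38, 209 and 87.7 TPM in tumours. Its groups did not overlap, but it did not pass the test (log2 fold change -3.57, adjusted p = 0.0547). The calls lost with 1 library fewer were those of Axin2 without normal liver 1 or 2 or tumour 1 or 3 (highest adjusted p 0.102) and Tbx3 without normal liver 1 or 2 or tumour 3 (highest adjusted p 0.0859). The pericentral count was 15 after median centring, 5 without normal liver 1, 4 without normal liver 2 and 5 without tumour 3.

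Of 26 periportal genes, all 26 were tested, and 4 were higher, near the 16.2% of all genes, while 4 were lower, beside 3.93% of all genes. The median was 0.13 as deposited and -0.22 after median centring, and the median member stood at 0.35, -0.20 and 0.85 in tumours 1, 2 and 3. Cdh1, E-cadherin, went from 4.2, 4.15 and 2.77 TPM to 30.3, 49.3 and 47.3 TPM, a log2 fold change of 3.18 ± 0.26 (SE, adjusted p = 0.00196), and was 4.66, 2.46 and 2.74 TPM in non-tumour livers. Pigr, the receptor that carries IgA into bile, went the other way, from 1156, 858 and 451 TPM to 131, 148 and 20.1 TPM (log2 fold change -3.36, adjusted p = 0.021). Pck1, the gate of gluconeogenesis, was 1297, 1097 and 2409 TPM in normal livers and 121, 735 and 1155 TPM in tumours and did not pass (adjusted p = 0.158). The amino acid catabolic genes Hal and Sds had adjusted p values of 0.75 and 0.376. Of 11 urea cycle genes limma called 0, with 2 at an unadjusted p under 0.05, and voom called 1, lower. The carbamoyl phosphate synthetase Cps1 was 111, 158 and 272 TPM in normal livers and 440.0, 149 and 396 TPM in tumours, and the transcarbamylase Otc 174, 156 and 184 TPM and 168, 66 and 161 TPM. With 1 library left out, the calls that ended were those of Pigr without normal liver 1 or 2 (highest adjusted p 0.0712). The 4 periportal genes called lower became 1 without normal liver 1, 1 without normal liver 2, 2 without normal liver 3 and 2 without tumour 2.

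Male-biased liver genes were low in the tumours. Of 28 male-biased genes, 26 passed the minimum, 16 were lower and 0 higher (all genes: 3.93% and 16.2%), with a median log2 fold change of -2.13. Of 22 female-biased genes, 17 passed, 4 were higher, a share not far above the 16.2% of all genes, and 0 lower, with a median of 2.08. Over non-tumour and normal livers 13 of the 22 passed, so some entered here through the tumours. The median male-biased member stood at -2.56, -1.51 and -1.98 in tumours 1, 2 and 3 relative to normal livers, and the median female-biased member at 2.6, 1.40 and 1.31. Tumour 1 was furthest from the normal livers in both lists. In non-tumour livers the same medians were 0.03, -0.42 and 0.40 and 0.47, -0.06 and 0.08. Slco1a1, an organic anion transporter of the male liver, went from 93.8, 96.2 and 49.4 TPM to 0.41, 13 and 1.82 TPM, a log2 fold change of -4.34 ± 0.76 (SE, adjusted p = 0.011). Mup20, a male pheromone protein, was 9124, 8684 and 7929.9 TPM in normal livers and 2119, 6399 and 10294 TPM in tumours and did not pass (adjusted p = 0.353). Rtn4, a reticulon on the female-biased list that shapes the endoplasmic reticulum, went from 5.32, 7.49 and 5.6 TPM to 41.9, 41.7 and 50.5 TPM, a log2 fold change of 2.69 ± 0.21 (SE, adjusted p = 0.00195). The male-biased count was 17 after median centring, 8 without normal liver 1, 6 without normal liver 2 and 9 without tumour 3, and the female-biased count was 8 without tumour 1.

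**Figure D4:**
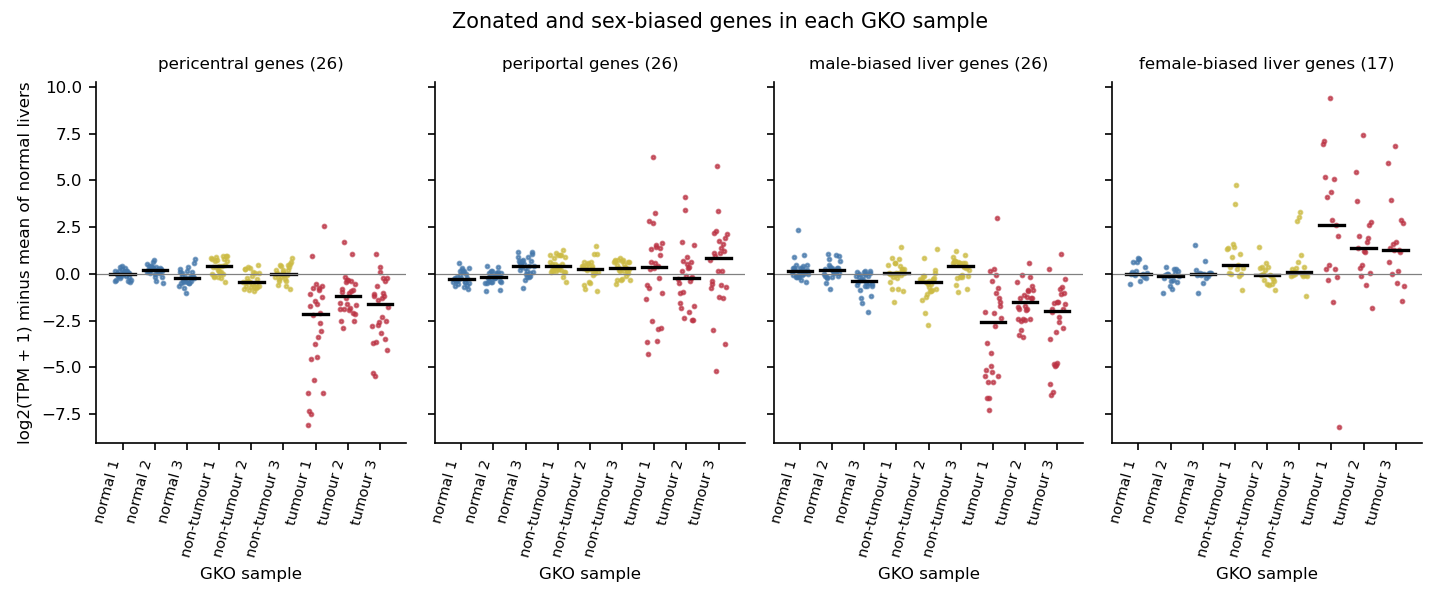
Tested members of 4 lists (points) in each GKO sample, as log2(TPM + 1) minus the mean of the 3 normal livers, with the median of the members as a black line. The tumour medians are -2.15, -1.16 and -1.58 for pericentral, 0.35, -0.20 and 0.85 for periportal, -2.56, -1.51 and -1.98 for male-biased and 2.6, 1.40 and 1.31 for female-biased genes.

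The growth hormone axis, which sets sex-biased expression, was tested with it. Of 23 genes, 21 passed, 2 were higher and 4 lower (all genes: 16.2% and 3.93%), with a median of 0.09, or -0.26 after median centring. Igf1, the main product of growth hormone action on the liver, went from 268, 148 and 147 TPM to 29.4, 32.9 and 86 TPM (log2 fold change -2.02, adjusted p = 0.0207), and the receptor Ghr from 59.5, 57.3 and 60.3 TPM to 26.4, 21.4 and 39.6 TPM (log2 fold change -1.04, adjusted p = 0.0289). Igfbp3, a carrier of IGFs, rose from 16.7, 14.2 and 9.61 TPM to 42.3, 52.7 and 39.2 TPM (log2 fold change 1.68, adjusted p = 0.0071). Leaving out 1 library ended the calls of Igf1 without normal liver 1 or 2 or tumour 1 (highest adjusted p 0.0643) and Ghr without normal liver 1, 2 or 3 or tumour 1 or 2 (highest adjusted p 0.0907). The 4 genes called lower became 1 without normal liver 1, 1 without normal liver 2, 2 without normal liver 3 and 1 without tumour 1.

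Few transcription factors of the hepatocyte were called. Of 25, all were tested, 1 was higher and 3 lower (all genes: 16.2% and 3.93%), with a median of 0.20, or -0.15 after median centring. With that centring 0 were higher and 3 lower, beside 6.11% and 7.56% of all genes. Hnf4a, the master regulator of the hepatocyte, was 155, 141 and 116 TPM in normal livers and 172, 158 and 217 TPM in tumours (log2 fold change 0.40, adjusted p = 0.228). Onecut2, a homeobox factor, went from 37.5, 23 and 12.1 TPM to 0.0727, 5.32 and 0.355 TPM (log2 fold change -3.45, adjusted p = 0.0154). Calls that ended when 1 library was left out were those of Onecut2 without normal liver 1 or 2 or tumour 3 (highest adjusted p 0.0561). The 3 genes called lower became 1 without normal liver 1, 1 without normal liver 2 and 1 without tumour 3.

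Of 35 drug-metabolising P450 genes, 32 were tested, 11 were lower and 2 higher (all genes: 3.93% and 16.2%), with a median of -0.12. The 2 higher genes were Cyp2a4 and Cyp2b9, and the larger falls were those of Cyp1a2, Cyp2c54, Cyp2c37 and Cyp2e1, all described above. Of 22 genes of bile acid synthesis and transport, 20 passed, 1 was higher and 4 lower (all genes: 16.2% and 3.93%), with a median of -0.49. Cyp7b1, the oxysterol hydroxylase of the alternative pathway, went from 159, 213 and 132 TPM to 7.75, 30.6 and 4.61 TPM, a log2 fold change of -3.84 ± 0.58 (SE, adjusted p = 0.00726). Slco1b2, the hepatocyte uptake transporter of unconjugated bile acids, went from 188, 191 and 144 TPM to 8.96, 38.5 and 24.1 TPM (log2 fold change -3.02, adjusted p = 0.00769). Cyp7a1, the rate-limiting enzyme of bile acid synthesis, was 8.27, 11 and 7.12 TPM in normal livers, 42.5, 6.27 and 41 TPM in non-tumour livers and 54.3, 8.29 and 3.94 TPM in tumours (adjusted p = 0.672). Cyp8b1, which makes cholic acid, was 377, 59.3 and 15.8 TPM in tumours against 264, 398 and 312 TPM (adjusted p = 0.148), with tumour 1 at the normal level. The P450 genes called lower numbered 4 without normal liver 1, 4 without normal liver 2, 3 without normal liver 3 and 4 without tumour 3, and those called higher 3 without tumour 1, 5 without tumour 2 and 3 without tumour 3.

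The oxidative stress genes under NRF2 gave calls in both directions. Of 24, 22 were tested, 2 were higher and 2 lower (all genes: 16.2% and 3.93%), with a median of -0.19. Gclc, which limits glutathione synthesis, went from 147, 136 and 179 TPM to 48.6, 62.5 and 41.3 TPM, a log2 fold change of -1.59 ± 0.23 (SE, adjusted p = 0.00631). Srxn1, sulfiredoxin, went from 24.9, 32 and 27.7 TPM to 84.7, 58.9 and 42.3 TPM (log2 fold change 1.06, adjusted p = 0.0367). Nqo1, a quinone reductase, was 53.9, 8.74 and 1.41 TPM in tumours against 7.25, 7.11 and 8.85 TPM in normal livers (log2 fold change 0.32, -0.05 by voom, adjusted p = 0.829), and Gstp2, a close paralog of Gstp1, was 245, 44 and 50.3 TPM against 38.5, 58.2 and 29.6 TPM (adjusted p = 0.28). In both, tumour 1 lay above the rest. The calls lost with 1 library fewer were those of Srxn1 without normal liver 1, 2 or 3 or tumour 1 or 2 (highest adjusted p 0.099). After median centring Srxn1 had an adjusted p value of 0.191. The adjusted p by voom was 0.0945 for Srxn1. The 2 higher calls of the list became 0 after median centring, by voom, with TPM rescaled without mitochondrially encoded genes and without any one library but tumour 3, where there was 1. The 2 lower calls became 1 without normal liver 1, 1 without normal liver 2, 1 without normal liver 3 and 5 without tumour 1.

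Sterol synthesis was among the most uniform changes. All 25 genes of cholesterol synthesis and uptake were tested and had a log2 fold change above 0, with a median of 1.78. Of them, 16 were called higher and 0 lower (all genes: 16.2% and 3.93%). After median centring 10 were called, and 23 of 25 stayed above 0. Their summed level was 449 to 641 TPM in normal livers, 449 to 494 TPM in non-tumour livers and 1004 to 3240.1 TPM in tumours. Sqle, squalene epoxidase, went from 6.33, 4.27 and 2.29 TPM to 48.9, 23.6 and 40.7 TPM, a log2 fold change of 2.89 ± 0.37 (SE, adjusted p = 0.00486). Tumour 2 held the lowest tumour value of this gene and tumour 1 the highest, and its call held whichever library was left out. The count of sterol genes was 8 without normal liver 2, 9 without normal liver 3 and 9 without tumour 3.

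Of 20 genes of de novo lipogenesis, all were tested, 7 were higher and 0 lower (all genes: 16.2% and 3.93%), with a median of 1.32. The desaturases of polyunsaturated fatty acids were among the called genes. Fads2 went from 71.8, 108 and 77.9 TPM to 1182, 611 and 2507 TPM, a log2 fold change of 3.83 ± 0.48 (SE, adjusted p = 0.00459), and Fads1 from 92.4, 141 and 87.7 TPM to 577, 347 and 1059.7 TPM (log2 fold change 2.5, adjusted p = 0.00912). Fasn, the fatty acid synthase, was 63.5, 16.4 and 116 TPM in tumours against 15.3, 15.6 and 6.22 TPM in normal livers (adjusted p = 0.0703), and the stearoyl-CoA desaturase Scd1 1474, 331 and 1731 TPM against 1106, 921 and 502 TPM (adjusted p = 0.806). Neither passed the test, and tumour 2 lay below tumours 1 and 3 in both. Pklr, the liver pyruvate kinase, was 114, 23.7 and 178 TPM in tumours against 9.68, 13.1 and 14.3 TPM, with the same order of tumours (log2 fold change 2.59, adjusted p = 0.0322). A call was lost on leaving out 1 library for Pklr without normal liver 1, 2 or 3 or tumour 1 or 3 (highest adjusted p 0.091). After median centring Pklr had an adjusted p value of 0.0642. The lipogenesis count was 4 after median centring, 3 without normal liver 1, 2 without normal liver 2, 4 without normal liver 3, 4 without tumour 1 and 12 without tumour 2.

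Fatty acid oxidation genes gave calls in both directions, with a lower summed level in tumours. All 31 genes of this pathway and of the nuclear receptor PPAR alpha were tested, with a median of -0.20. Of them, 3 were higher and 5 lower (all genes: 16.2% and 3.93%). After median centring 1 was higher and 6 lower (all genes: 6.11% and 7.56%), with a median of -0.55. The summed level was 31921 to 46581 TPM in normal livers, 22717 to 32122.5 TPM in non-tumour livers and 9711 to 23635 TPM in tumours. Cpt1a, which admits fatty acids to mitochondria, went from 86.2, 97.8 and 105 TPM to 239, 227 and 506 TPM (log2 fold change 1.64, adjusted p = 0.0157), and the dehydrogenase Acadvl from 14.2, 23.2 and 35.8 TPM to 63.3, 59.9 and 138 TPM (adjusted p = 0.0265). The omega-hydroxylase Cyp4a14, a classical PPAR alpha target, was 970.1, 1274 and 1877 TPM in normal livers and 1.71, 333 and 99.7 TPM in tumours. It fell short of the threshold (log2 fold change -4.88, adjusted p = 0.0591). Its paralog Cyp4a31 was 44.4, 118 and 179 TPM in tumours against 35.7, 34.1 and 23.4 TPM (log2 fold change 1.65, adjusted p = 0.0476), and Ppara itself 11.5, 13.1 and 34 TPM against 17.8, 18.5 and 20.9 TPM (adjusted p = 0.833). Leaving out 1 library ended the calls of Cpt1a without normal liver 1 or 2 (highest adjusted p 0.0577), Acadvl without normal liver 1 or 2 or tumour 3 (highest adjusted p 0.0818), and Cyp4a31 without normal liver 1, 2 or 3 or tumour 2 or 3 (highest adjusted p 0.128). After median centring Acadvl and Cyp4a31 had adjusted p values of 0.0729 and 0.0929. Voom gave Cyp4a31 an adjusted p of 0.0707. The 5 genes called lower became 1 without normal liver 1, 0 without normal liver 2, 1 without normal liver 3 and 3 without tumour 1, and the 3 called higher became 0 without normal liver 1, 0 without normal liver 2 and 1 without tumour 3.

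Of 25 genes of glycolysis and gluconeogenesis, 24 passed, 7 were higher and 0 lower (all genes: 16.2% and 3.93%), with a median of 0.59. Aldoc, an aldolase best known from brain, went from 1.87, 2.78 and 2.66 TPM to 24.9, 10.4 and 13.2 TPM, a log2 fold change of 2.24 ± 0.33 (SE, adjusted p = 0.0063). G6pdx, the entry of the pentose phosphate pathway, went from 1.19, 1.17 and 0.572 TPM to 3.02, 9.13 and 8.35 TPM (log2 fold change 1.89, adjusted p = 0.0156). Hk2, the hexokinase of many tumours, stayed at 0.236, 0.389 and 0.367 TPM in tumours and 0.594, 0.478 and 0.354 TPM in normal livers, below the minimum for a test. The glucose transporter Slc2a2 was 37.9, 34.4 and 134 TPM in tumours and 50.4, 36.1 and 49.5 TPM in normal livers (adjusted p = 0.672). Calls that ended when 1 library was left out were those of G6pdx without normal liver 2 or 3 or tumour 3 (highest adjusted p 0.0535). The count was 3 after median centring, 3 without normal liver 1, 2 without normal liver 2, 2 without normal liver 3, 3 without tumour 1 and 3 without tumour 3.

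Plasma proteins made by hepatocytes were often higher. Of 26 acute-phase genes, all were tested, 12 were higher and 2 lower (all genes: 16.2% and 3.93%), with a median of 0.65. After median centring 8 stayed higher, beside 6.11% of all genes. Apcs, serum amyloid P, went from 164, 149 and 99.6 TPM to 2256, 1206 and 945 TPM, a log2 fold change of 3.34 ± 0.36 (SE, adjusted p = 0.00383). Mt1, the metal-binding metallothionein, went from 255, 81.7 and 135 TPM to 3324, 1045 and 1131 TPM (log2 fold change 3.47, adjusted p = 0.00822). Non-tumour livers were uneven for Mt1, at 506, 122 and 1708 TPM, and overlapped the tumours. Saa1, the serum amyloid of systemic inflammation, was 404, 96.2 and 30.2 TPM in normal livers and 73.6, 147 and 28.9 TPM in tumours (adjusted p = 0.649). Of 36 complement and coagulation genes, 34 were tested, 8 were higher, near the 16.2% of all genes, and 3 lower, with a median of 0.23, or -0.12 after median centring. Ahsg, fetuin-A, went from 4174, 4534 and 3416 TPM to 35369.5, 26445 and 17301 TPM, a log2 fold change of 2.66 ± 0.32 (SE, adjusted p = 0.00433), and Plg, plasminogen, from 124, 312 and 349 TPM to 1053, 753 and 1399.8 TPM (log2 fold change 2.11, adjusted p = 0.0165). C6, of the terminal complement complex, went the other way, from 47.4, 64.3 and 49.9 TPM to 0.426, 24 and 5.31 TPM (log2 fold change -3.16, adjusted p = 0.0424). C8a and C9 of the same complex had log2 fold changes of -0.92 and -1.84, with adjusted p values of 0.0678 and 0.204. The calls lost with 1 library fewer were those of Plg without tumour 3 (highest adjusted p 0.0568) and C6 without normal liver 1, 2 or 3 or tumour 3 (highest adjusted p 0.124). After median centring Plg had an adjusted p value of 0.0533. The 3 complement and coagulation genes called lower became 1 without normal liver 2 and 5 without tumour 1.

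Clock genes can differ with the hour of harvest, which the sources used here do not give. Of 19, 17 passed, 2 were higher and 0 lower (all genes: 16.2% and 3.93%), with a median of 0.46. Dbp, a clock output factor, was 193, 120.4 and 256 TPM in tumours, 59.8, 30.1 and 81.3 TPM in normal livers and 52.8, 2.35 and 87.1 TPM in non-tumour livers (tumour over normal liver adjusted p = 0.0259), and Tspan4, a tetraspanin on the same list, 99.1, 73.3 and 112 TPM, 25.4, 16.6 and 30.4 TPM and 39.4, 6.97 and 34.2 TPM. Non-tumour liver 2 was the lowest sample for both genes. With 1 library left out, the calls that ended were those of Dbp without normal liver 1 or 2 or tumour 1 or 3 (highest adjusted p 0.0819). After median centring Dbp had an adjusted p value of 0.0623.

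The Polycomb genes and candidate targets of the study gave calls no more often than all genes. Of 28, 25 passed, 3 were higher and 0 lower (all genes: 16.2% and 3.93%), with a median of 0.25, or -0.10 after median centring. The study chose its candidates on these samples, so the list is not independent evidence of a direction. Cbx7, a reader of Polycomb marks, was 2.21, 1.82 and 4.89 TPM in normal livers and 2.67, 1.55 and 3.29 TPM in tumours (log2 fold change -0.14, adjusted p = 0.798). Timp3, an inhibitor of metalloproteinases and a known miR-181 target, went from 0.0751, 0.366 and 0.476 TPM to 2.71, 1.71 and 4.35 TPM (log2 fold change 1.55, adjusted p = 0.0143), and Dusp4, an ERK phosphatase, from 0.759, 0.408 and 0 TPM to 1.38, 1.78 and 1.47 TPM (adjusted p = 0.0497). Aldh3a2, a fatty aldehyde dehydrogenase, was 40.3, 93.3 and 102 TPM against 160.5, 163 and 166 TPM without overlap, but did not pass (log2 fold change -1.15, adjusted p = 0.0556, 0.0324 after median centring). Ndrg2, a stress-responsive gene, had a log2 fold change of -0.69 (adjusted p = 0.112, 0.0397 after centring). Fgfr2 split the tumours, at 0.252, 9.86 and 16.8 TPM against 4.96, 4.02 and 5.68 TPM in normal livers. A call was lost on leaving out 1 library for Timp3 without normal liver 2 (highest adjusted p 0.0517) and Dusp4 without normal liver 1, 2 or 3 or tumour 1, 2 or 3 (highest adjusted p 0.127). After median centring Dusp4 had an adjusted p value of 0.149. By voom the adjusted p was 0.108 for Dusp4. The 3 calls became 1 without normal liver 2.

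Of 20 genes of epithelial-mesenchymal transition and adhesion, 19 passed, 7 were higher and 0 lower (all genes: 16.2% and 3.93%), with a median of 0.65. Beside the epithelial Cdh1, the intermediate filament gene Vim of mesenchymal cells went from 11.3, 15.5 and 7.21 TPM to 45.2, 42.2 and 32.1 TPM, a log2 fold change of 1.77 ± 0.30 (SE, adjusted p = 0.00962), and the TGF-beta receptor Tgfbr2 from 1.94, 1.99 and 1.77 TPM to 8.86, 11.9 and 14.4 TPM, a log2 fold change of 2.11 ± 0.23 (SE, adjusted p = 0.00383). Cdh2, the N-cadherin of hepatocytes and mesenchymal cells, was 7.21, 11.1 and 12.9 TPM in tumours against 31.1, 20.7 and 8.78 TPM (adjusted p = 0.236). The transcription factors Snai1 and Snai2 were low in every GKO sample and had adjusted p values of 0.0515 and 0.151. The count was 4 after median centring, 4 without normal liver 2 and 4 without normal liver 3.

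Matrix genes were higher, led by collagens. Of 34, 33 passed, 16 were higher and 1 lower (all genes: 16.2% and 3.93%), with a median of 1.14. Over non-tumour and normal livers 27 passed, so some entered here through the tumours. The summed level was 425 to 606 TPM in normal livers and 1386 to 2038 TPM in tumours. Col4a1 of the basement membrane went from 5.64, 5.25 and 3.4 TPM to 84.6, 32.4 and 64.6 TPM, a log2 fold change of 3.33 ± 0.37 (SE, adjusted p = 0.00383), and its partner Col4a2 from 4.33, 3.94 and 2.45 TPM to 54.2, 22.8 and 42.5 TPM (log2 fold change 3.10). The fibrillar Col1a1 went from 2.74, 4.22 and 1.9 TPM to 39.5, 62.2 and 23.5 TPM, a log2 fold change of 3.37 ± 0.38 (SE, adjusted p = 0.00383), and Col3a1 from 5.26, 7.05 and 2.01 TPM to 32.5, 40.7 and 21.4 TPM (log2 fold change 2.56, adjusted p = 0.00804). Non-tumour livers, at 1.19, 1.46 and 0.435 TPM for Col1a1, lay below the normal livers. Col4a1 and Col4a2 were highest in tumour 1, and Col1a1 and Col3a1 in tumour 2. All 4 kept their call whichever library was left out. The matrix count was 12 after median centring and 11 without normal liver 2.

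Genes of capillary endothelium, which lines vessels of tumours rather than liver sinusoids, rose with the basement membrane. Of 11, 10 passed, 7 were higher and 0 lower (all genes: 16.2% and 3.93%), with a median of 1.63. Over non-tumour and normal livers 7 of the 11 passed, so some entered here through their level in the tumours. The higher count was 5, 5 and 6 without normal liver 1, 2 and 3 and 5 without tumour 3. The summed level was 58.2 to 71.5 TPM in normal livers and 172 to 259 TPM in tumours. Esm1, a proteoglycan of endothelial tip cells, went from 0.758, 0.177 and 0.952 TPM to 52, 20.8 and 43.5 TPM, a log2 fold change of 4.54 ± 0.37 (SE, adjusted p = 0.00195). Cdh5, VE-cadherin, went from 5.06, 5.9 and 3.38 TPM to 28.6, 16.2 and 29.1 TPM (log2 fold change 2.13, adjusted p = 0.00598), and Cd34 from 0.302, 0.528 and 0.29 TPM to 6.98, 1.84 and 5.51 TPM (log2 fold change 1.95, adjusted p = 0.015). Plvap, of endothelial fenestrae, went from 56.1, 47.5 and 46.2 TPM to 115, 115 and 140.5 TPM (adjusted p = 0.00799). Apln, the tip cell peptide apelin, was 0.155, 0 and 0.0373 TPM in normal livers and 15.9, 1.28 and 8.43 TPM in tumours (adjusted p = 0.0258). Tumour 2 was the lowest tumour for Esm1, Cdh5, Cd34 and Apln. Sinusoidal genes gave few calls, with 1 of 12 higher, 0 lower and a median of -0.25. Kdr, the VEGF receptor shared by both kinds of endothelium, went from 3.73, 4.51 and 5.14 TPM to 9.22, 9.02 and 13 TPM (adjusted p = 0.0204), while the sinusoidal scavenger receptor Stab2 was 3.78, 7.46 and 8.92 TPM in tumours against 9.36, 6.81 and 4.47 TPM (adjusted p = 0.934) and Lyve1 2.15, 18.5 and 11.5 TPM against 6.79, 2.93 and 1.81 TPM. Leaving out 1 library ended the calls of Cd34 without normal liver 1 or 2 or tumour 3 (highest adjusted p 0.0534), Apln without normal liver 1, 2 or 3 or tumour 3 (highest adjusted p 0.0862), and Kdr without normal liver 1 or 2 (highest adjusted p 0.0724). After median centring Apln and Kdr had adjusted p values of 0.0527 and 0.0745. Voom gave Apln an adjusted p of 0.0646.

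**Figure D5:**
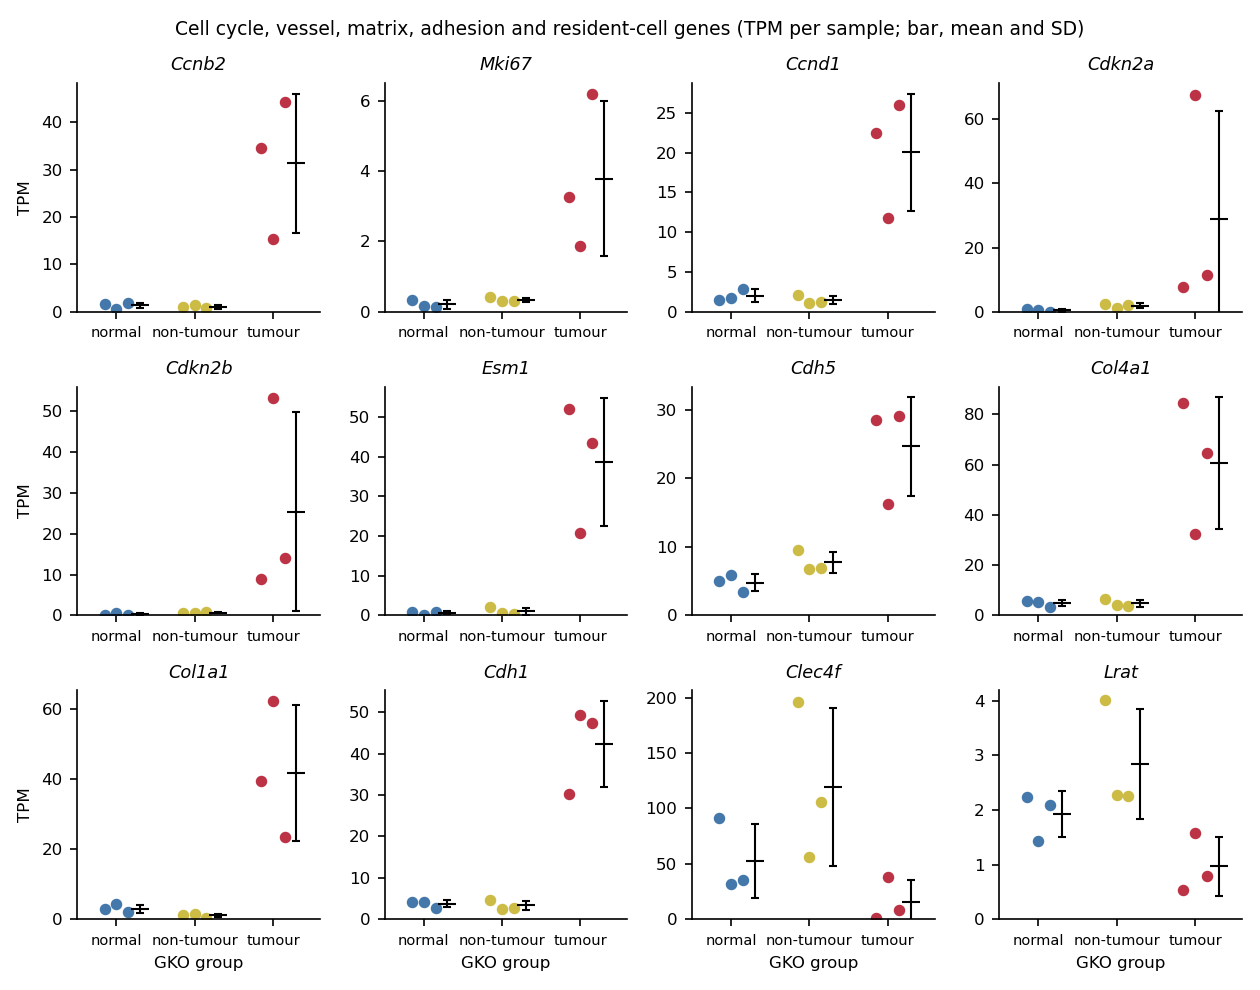
TPM (linear axis from 0) of 12 genes in the 3 normal, 3 non-tumour and 3 tumour GKO samples (points), with the mean and SD of each group as bars, clipped at 0. Ccnb2, Ccnd1, Esm1, Col4a1, Col1a1 and Cdh1 lie higher in all 3 tumours, with Esm1 at 52, 20.8 and 43.5 TPM against 0.758, 0.177 and 0.952 TPM in normal livers, while Clec4f and Lrat overlap between the groups.

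Markers of other liver cells were read as a check of what the tissue held. The 9 hepatocyte markers in the table summed to 88499 to 110145 TPM in normal livers and 184245 to 216947 TPM in tumours, so liver transcripts were abundant in both. Of the 9, 2 were higher and 0 lower as deposited (all genes: 16.2% and 3.93%). After median centring 0 were higher and 1 lower, and 1 was higher without any one normal liver. Apoa1 and Ttr, both plasma carriers, had log2 fold changes of 1.07 and -0.51 and did not pass (adjusted p = 0.0542 and 0.29). Kupffer cell markers, of the resident macrophages, summed to 159 to 288 TPM in normal livers and 18.6 to 148 TPM in tumours. Among 9 tested, 1 was higher and 2 lower, beside 16.2% and 3.93% of all genes. Clec4f, specific to these cells, was 1.18, 38 and 8.48 TPM in tumours against 91, 31.6 and 34.9 TPM in normal livers and 196, 55.6 and 106 TPM in non-tumour livers, with tumour 2 within the normal range (adjusted p = 0.114). Timd4, another resident marker, was 0.0498, 1.91 and 0.392 TPM against 5.29, 1.2 and 1.35 TPM (adjusted p = 0.204). Fcna, a ficolin of Kupffer cells, went from 74.3, 37.8 and 33.1 TPM to 1.58, 21.8 and 4.88 TPM (log2 fold change -2.73, adjusted p = 0.0378). Adgre1, the F4/80 of macrophages, was instead higher, at 5.21, 2.34 and 2.93 TPM against 0.68, 0.766 and 0.0363 TPM (log2 fold change 1.58, adjusted p = 0.0174). Calls that ended when 1 library was left out were those of Fcna without normal liver 1, 2 or 3 or tumour 1 or 3 (highest adjusted p 0.11). The 2 Kupffer genes called lower became 0 without normal liver 1, 0 without normal liver 2, 0 without normal liver 3, 1 without tumour 1, 4 without tumour 2 and 0 without tumour 3.

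Stellate cell and fibroblast markers summed to 286 to 470.4 TPM in normal livers and 147 to 295 TPM in tumours. Ecm1, given below, alone held a large part of the normal sums, so the sums do not speak for the other markers. Among 14 tested, 2 were higher and 2 lower, beside 16.2% and 3.93% of all genes. The higher ones were the collagens Col1a1 and Col3a1. Lrat, which stores vitamin A in quiescent stellate cells, was 0.526, 1.58 and 0.797 TPM against 2.24, 1.44 and 2.09 TPM (adjusted p = 0.151), Reln 0.442, 2.97 and 0.821 TPM against 3.88, 2.94 and 2.67 TPM (adjusted p = 0.124), and Ecm1, an extracellular inhibitor of TGF-beta activation, fell from 321, 144 and 171 TPM to 15, 62.6 and 15 TPM, a log2 fold change of -2.98 ± 0.57 (SE, adjusted p = 0.0135). Markers of recruited macrophages summed to 36.4 to 46.2 TPM in normal livers and 49.3 to 152 TPM in tumours, with 1 of 8 higher, Itgax (0.408, 0.207 and 0.391 TPM to 3.04, 1.86 and 1.32 TPM). Neutrophil, T and NK cell, B cell and cholangiocyte lists had 0 members called by limma as deposited or by voom and 0, 0, 1 and 1 at an unadjusted p under 0.05, with 4, 9, 7 and 8 tested. After median centring 1 T and NK cell gene and 1 B cell gene were called lower, without tumour 2 1 neutrophil and 1 B cell gene were lower, and without tumour 1 or tumour 3 1 cholangiocyte gene was higher. The neutrophil markers summed to 14.5 to 29.7 TPM in normal livers and 6.35 to 23.3 TPM in tumours, the T and NK cell markers to 18.6 to 32.5 TPM in normal livers and 14.1 to 20.6 TPM in tumours, and the B cell markers to 109 to 266 TPM in normal livers and 19.7 to 169 TPM in tumours. Cholangiocyte markers summed to 94.7 to 102 TPM in normal livers and 80.6 to 1035 TPM in tumours, with a median of 566 TPM over the tumours. Chosen after its values were seen, the secreted phosphoprotein Spp1 was 34, 934 and 536 TPM in tumours and 81.9, 69 and 77.8 TPM in normal livers (adjusted p = 0.267). The tetraspanin Tspan8, chosen likewise, was 31.6, 64.1 and 0.501 TPM in tumours and 0.647, 1.68 and 0.621 TPM in normal livers (adjusted p = 0.126). Cd3e of T cells stayed at or under 0.634 TPM in tumours and normal livers. The bile duct keratin Krt19 was 1.23, 5.47 and 1.05 TPM in tumours and 2.51, 5.89 and 1.65 TPM in normal livers. Of 5 erythroid genes tested, Alas2 of haem synthesis was lower (13.8, 25.5 and 28.5 TPM to 12.4, 9.72 and 7.25 TPM, adjusted p = 0.0483), while Hba-a1 was 312, 361 and 134 TPM against 254, 231 and 159 TPM. Whether the shares of these cells took part in the other results was not tested. The calls lost with 1 library fewer were those of Itgax without normal liver 1, 2 or 3 or tumour 1 (highest adjusted p 0.0862) and Alas2 without normal liver 2 or 3 or tumour 1, 2 or 3 (highest adjusted p 0.153). After median centring Itgax and Alas2 had adjusted p values of 0.104 and 0.0509.

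Antigen presentation genes depended on the scaling. Of 18 MHC class I and II genes, 17 passed and 9 were higher as deposited (all genes: 16.2%), with a median of 1.15. However, 0 were called after median centring, 1 by voom, 0 without any one of normal livers 1, 2 and 3 and 4 without tumour 2. The transporter Tap1 was 7.26, 4.96 and 7.12 TPM in normal livers and 11.6, 31.1 and 20.7 TPM in tumours (log2 fold change 1.49, adjusted p = 0.0259). The classical class I gene H2-D1 was 469, 396 and 518 TPM and 765, 1954 and 1098 TPM (log2 fold change 1.36, adjusted p = 0.0337). H2-Q6 and H2-Q7, close paralogs between which reads can be split, had log2 fold changes of 2.03 and 1.71, while H2-K1 and the class II gene H2-Aa had 0.92 and 0.82 and did not pass (adjusted p = 0.0617 and 0.0715). Tumour 2 was the highest for Tap1, H2-D1, H2-K1, H2-Q6 and H2-Q7. With 1 library left out, the calls that ended were those of Tap1, H2-D1, H2-Q6 and H2-Q7 without normal liver 1, 2 or 3 or tumour 3 (highest adjusted p 0.095, 0.115, 0.118 and 0.132). After median centring Tap1, H2-D1, H2-Q6 and H2-Q7 had adjusted p values of 0.0684, 0.115, 0.082 and 0.121. H2-D1, H2-Q6 and H2-Q7 had an adjusted p of 0.0706, 0.0537 and 0.073 by voom. Of 26 interferon-stimulated genes, all were tested, 2 were higher and 0 lower (all genes: 16.2% and 3.93%), with a median of 0.43. The chemokine Cxcl9 went from 3.45, 1.73 and 2.38 TPM to 8.97, 6.24 and 10.2 TPM (adjusted p = 0.0134) and the antiviral synthetase Oas1a from 5.0, 1.18 and 1.81 TPM to 6.37, 16.3 and 12.7 TPM (adjusted p = 0.0282), whereas Isg15 was 48.1, 60.2 and 47.4 TPM against 74.4, 23.5 and 39.3 TPM (adjusted p = 0.581). A call was lost on leaving out 1 library for Cxcl9 without normal liver 2 (highest adjusted p 0.0565) and Oas1a without normal liver 2 or 3 or tumour 2 or 3 (highest adjusted p 0.0961). After median centring Oas1a had an adjusted p value of 0.0505. By voom the adjusted p was 0.0557 for Oas1a.

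Whether the tumour effect differs between GKO and WT mice was tested as the difference of the 2 differences over 12 samples. Of 13867 genes, 2 (0.0144%) passed, both with a smaller effect in GKO, and 741 had an unadjusted p under 0.05. Csn3, kappa-casein, was 0.0782, 2.89 and 0.088 TPM in GKO tumours and averaged 130.1 TPM in WT tumours, a difference of effects of -6.36 ± 0.59 (SE, adjusted p = 0.00324). Gm36325, a predicted gene, was 0, 0.424 and 0.465 TPM in GKO tumours and averaged 10.4 TPM in WT tumours, a difference of -3.15 ± 0.31 (SE, adjusted p = 0.00337). The next 3 genes, Gm19680, Dnaic1 and Tagln2, had an adjusted p of 0.0558. Tagln2, an actin-binding protein, rose in GKO tumours all the same, from 13.4, 15.6 and 11.1 TPM to 90.2, 89.9 and 69.6 TPM (log2 fold change 2.55, adjusted p = 0.00214). The metallothionein Mt1 had a difference of 5.53 ± 0.85 (adjusted p = 0.0625). Of the large GKO changes, differences were 2.24 ± 2.01 for H19, -1.72 ± 1.12 for Cyp2a4, -0.71 ± 1.53 for Oat, -0.42 ± 0.50 for Cd63, -0.54 ± 0.40 for Dusp5 and -4.81 ± 1.62 for Afp (SE), and these did not pass. Without WT tumour 3 the calls numbered 127, without GKO tumour 1 or 2 they numbered 18 and 24, and without GKO normal liver 3 they numbered 4.

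The 3 tumours differed among themselves for some of the most abundant genes. Cyp4a10, an omega-hydroxylase under PPAR alpha, was 2.72, 301 and 685 TPM in tumours 1, 2 and 3 against 1106, 1008 and 1116 TPM in normal livers, and did not pass the test (adjusted p = 0.168). Cldn15, a tight junction claudin of the intestine, was 357, 0.863 and 1.32 TPM in tumours and 0.749, 1.17 and 1.27 TPM in normal livers, high in tumour 1 alone (adjusted p = 0.342). With Cyp4a14, these were the 3 widest ranges over the tumours among genes averaging 5 TPM or more there. Of the 108 named genes called, 56 kept their call whichever library was left out, 82 after median centring and 95 by voom.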

How the data were processed

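RNA-seq was read from 1 table of 18 liver samples, 3 in each of 6 groups. The deposited values were TPM, reads per unit of gene length scaled to a fixed total, which the authors computed per gene. The submitters' processing notes name STAR 2.7.3a, featureCounts 2.0.0 and mm10. Groups came from the sample labels. Whole reads could be recovered for 97.95 to 98.67% of values of up to 30 reads per sample, within 0.02 of a read, and gave the read totals. TPM had been divided by gene length and by the total of all genes, so a sample's highest genes set the scale of the rest.

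Values were tested as log2(TPM + 1) with limma 3.58.1 (R 4.3.3, eBayes with trend), over genes averaging 0.5 TPM or more across the compared samples, with Benjamini-Hochberg adjustment over all genes tested and a threshold of 0.05. With 3 samples against 3, an exact permutation test of a single value cannot give a p below 0.1, so none was used. Python 3.11.15, numpy 2.4.6, pandas 2.3.3 and matplotlib 3.10.9 did the rest, and the fits were tested on simulated data. Coordinates came from GENCODE M21 (GRCm38, 54809 of 54838 genes matched). Members and gene lists were chosen with earlier results of these data known. Of 728 genes on 39 lists, 725 were found. Named genes were the 12 largest rises and falls without overlap, preset key members and the 3 largest calls of each list, the deleted genes, the 5 smallest adjusted p of the genotype test and the 3 widest ranges over tumours, a few of which are not reported here. Alternatives were other scalings, filters, a pseudocount of 0.1, fits and leaving out each sample. Pairs of identical samples numbered 0.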

Additional observations from a re-analysis of the deposited data

Results flagged for a closer look

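The tumour effect differed between genotypes for 2 genes, tested as GKO tumour minus GKO normal liver minus the same difference in WT. For Csn3 it was -6.36 on the log2 scale, with an adjusted p of 0.00324, and GKO tumours held 0.0782, 2.89 and 0.088 TPM. For Gm36325 it was -3.15, with an adjusted p of 0.00337. Both were lower in GKO, and neither passed the adjusted threshold with a pseudocount of 0.1 TPM or by voom, where 0 genes did. The cause was not tested.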

How the results depend on the processing

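Every named gene called as deposited kept its sign under the alternatives run. The balance of calls and the medians of several lists near 0 turned with the scaling, as given beside them. The 2802 calls became 1475 without a filter on low values, 1614 with the replicate block and 930 to 2463 when 1 sample was left out. The 2255 higher calls became 1420 with TPM rescaled without mitochondrially encoded genes, 851 after median centring, 1210 without a filter, 1024 after quantile normalization, 1270 with the replicate block, 1311 by voom and 731 to 2002 with 1 sample fewer. The 547 lower calls became 1053 after centring, 265 without a filter, 906 after quantile normalization, 344 with the replicate block and 199 to 461 with 1 sample fewer. The rescaling and voom were chosen after seeing the data. The median gene stood 0.17 higher with that rescaling, 0.15 by voom, 0.02 after quantile normalization and -0.04 after centring. Normal livers and tumours came from different mice, and deviations of same-numbered samples correlated at -0.0662, 0.0465 and 0.0694, so the numbers do not pair them.

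Non-tumour against normal livers gave 1 call in a fit of all 18 samples and 0 to 2 with 1 sample fewer. Tumours against non-tumour livers gave 2722 in that fit, 1047 at a mean of at least 5 TPM, 589 without a filter and 229 to 1567 with 1 sample fewer, the lowest without non-tumour liver 3. The genotype test gave 6 calls in the fit of all samples, 1 at 5 TPM, 4 after centring, 0 with a pseudocount of 0.1, 0 by voom and 2 to 127 with 1 sample fewer. The cause was not tested.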

Other observations

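The genes of the respiratory chain and of the ribosome were looked at after their values had been seen. All 13 mitochondrially encoded protein genes were called lower in tumours, with log2 fold changes of -3.70 to -2.13 and a median of -2.68, as deposited and after median centring alike. They held 14.9, 8.24 and 16.8% of all TPM in normal livers and 2.29, 2.94 and 2.19% in tumours. In non-tumour livers their share was 9.34, 20.2 and 9.42%, and limma called 0 of 13 against normal livers, with a median of -0.06. The nuclear genes of oxidative phosphorylation, which build the same complexes, moved far less. Of 79 tested, 3 were higher and 9 lower, with a median of -0.22, and after median centring 0 were higher and 22 lower. With TPM rescaled without the mitochondrially encoded genes, 1 was higher and 21 lower. Of 78 cytosolic ribosomal protein genes 24 were higher and 0 lower, with a median of 0.54, which became 5 higher after median centring. Of 77 mitochondrial ribosomal protein genes 8 were higher and 1 lower. Of 38 genes taken as proteasome genes by their symbols alone, 2 were higher and 1 lower. Over all genes 16.2% were higher and 3.93% lower as deposited, and 6.11% and 7.56% after median centring. As deposited, the mitochondrial ribosomal and proteasome genes were thus called higher less often than all genes. After median centring 1 of the 77 was higher and 3 lower, and 2 of the 38 were higher, near the share of all genes, and 3 lower.

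In GKO tumour 3 genes of chromosome 9 stood lower than those of other chromosomes, which was seen after all chromosomes had been compared. Over 365 genes averaging 5 TPM or more across tumours and normal livers, the median difference from the normal livers was -0.363 on the log2 scale, relative to the sample's median gene. The other 19 chromosomes with at least 100 such genes spanned -0.068 to 0.147 in that tumour, and all 20 spanned -0.092 to 0.091 in tumour 1 and -0.11 to 0.095 in tumour 2. The lower values lay in the distal part. The median was -0.723 over 91 genes from chr9:66060222 to 107538673 and -0.614 over the 91 genes from there to 124476898, against 0.067 and -0.092 in the 2 stretches before. Tumour 1 stood at 0.024 and -0.082 and tumour 2 at -0.102 and -0.138 in the distal stretches. Of the 365 genes, 63% lay below 0 in tumour 3, and the cause was not tested.

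Some genes were high in a single GKO tumour, at 20 TPM or more and 10 times above every other GKO tumour and normal liver. There were 13 in tumour 1, 5 in tumour 2 and 3 in tumour 3, and those named here were chosen after their values were seen. Akr1b7, an aldo-keto reductase, was 108, 2.67 and 1.14 TPM in tumours 1, 2 and 3, and Gstm3, a glutathione transferase, 379.5, 17.5 and 13.3 TPM. The chemokine Cxcl17 was 2.28, 68.4 and 3.2 TPM and Miox, which breaks down inositol, 0.131, 30.4 and 0.959 TPM. Slc3a1, a subunit of the cystine transporter, was 0.906, 2.26 and 60.4 TPM. Some of these genes, but not all, were also high in WT tumours. Cldn15, at 357 TPM in tumour 1, reached at most 1.15 TPM in any WT tumour, and Ces4a, at 104 TPM in tumour 1, at most 0.745 TPM. The highest WT tumour held 45.7 TPM of Akr1b7, 1394 TPM of Gstm3, 10.6 TPM of Cxcl17, 216 TPM of Miox and 45.4 TPM of Slc3a1.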
